A study of Mus musculus with 9 samples.

Results

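DNA replication and the passage from G1 into S phase were followed through 48 listed genes, chosen by name for origin licensing, helicase, polymerase, clamp, nucleotide supply and G1/S control. All 48 were among the 21352 genes of the deposited expression table, and all 48 passed the filter for testing. The cells were HT-22, an immortalized line derived from mouse hippocampus and labelled wild type. There were 3 groups of 3 RNA-seq libraries. Control cells received no treatment that the labels name. HTL cells were exposed to homocysteine thiolactone, the reactive cyclic thioester of homocysteine, at 2 mM for 24 hours. Betaine plus HTL cells received betaine, a methyl donor and osmolyte, at 10 mM for 4 hours and then the same HTL exposure. Cells given only betaine were not analysed here, so what betaine does without HTL cannot be told apart from what it does with it.

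Origins are prepared in G1, when the origin recognition complex, Cdc6 and Cdt1 load rings of the Mcm2-7 helicase onto DNA, a step called licensing. In S phase, cyclin-dependent kinases and the Cdc45, GINS and Mcm10 proteins turn those rings into running forks, polymerases alpha, delta and epsilon copy the strands behind the clamp Pcna, and ribonucleotide reductase and thymidine kinase supply nucleotides. D-type and E-type cyclins, acting through the RB proteins, release E2F factors, which drive transcription of many of these genes in late G1. An RNA level in a dish of cells averages over all phases, so a smaller share of cells in S phase and less RNA per cell cannot be told apart here.

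The promoters were searched for sequence words that some of these genes carry. E2F sites were searched as TTTCCCGC, TTTCGCGC, TTTGCCGC and TTTGGCGC on both strands, where neighbouring matches may overlap, in RefSeq windows (GRCm38.p6) from 250 bases before to 50 bases after each start. Windows were found for 38 of the 48 members, and 15 of these 38 genes held a match, or 39.5%, against 2.6% of 27025 genes in the whole promoter table and 5.08% of the 8891 tested genes with a window. The CCAAT box, searched as CCAAT on both strands, was found in 65.8% of the 38, against 41.1% of all genes with a window and 43.9% of tested genes. A match is a description of the letters and not a shown binding site. The windows below were chosen because their genes carry matches and yet moved differently: Cdc6 and Mcm5 were highest in HTL cells, Cdt1 was highest in betaine plus HTL cells, and Mcm6 was highest in control cells. Capitals mark the E2F words, and each sequence runs 5′ to 3′ on the gene's strand.

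Cdc6 promoter, chr11:98907901-98908200, plus strand: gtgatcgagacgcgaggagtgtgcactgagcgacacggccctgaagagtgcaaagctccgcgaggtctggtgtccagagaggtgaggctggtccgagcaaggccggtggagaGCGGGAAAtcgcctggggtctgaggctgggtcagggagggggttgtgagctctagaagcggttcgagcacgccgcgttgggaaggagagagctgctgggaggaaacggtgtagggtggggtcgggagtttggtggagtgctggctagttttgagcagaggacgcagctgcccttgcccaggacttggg

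Cdt1 promoter, chr8:122567765-122568064, plus strand: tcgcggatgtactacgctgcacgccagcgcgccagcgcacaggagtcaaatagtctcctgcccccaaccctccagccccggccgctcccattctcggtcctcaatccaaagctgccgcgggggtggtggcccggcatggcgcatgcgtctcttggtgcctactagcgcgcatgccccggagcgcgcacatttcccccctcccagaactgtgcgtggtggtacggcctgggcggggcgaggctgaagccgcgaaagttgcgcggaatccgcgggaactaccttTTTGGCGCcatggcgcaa

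Mcm5 promoter, chr8:75109259-75109558, plus strand: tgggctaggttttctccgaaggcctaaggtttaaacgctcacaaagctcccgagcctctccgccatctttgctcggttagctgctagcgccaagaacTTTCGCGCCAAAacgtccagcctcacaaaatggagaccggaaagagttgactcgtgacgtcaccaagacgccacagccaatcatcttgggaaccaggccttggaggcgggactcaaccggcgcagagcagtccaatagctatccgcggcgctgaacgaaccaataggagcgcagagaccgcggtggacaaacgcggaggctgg

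Mcm6 promoter, chr1:128359656-128359955, minus strand: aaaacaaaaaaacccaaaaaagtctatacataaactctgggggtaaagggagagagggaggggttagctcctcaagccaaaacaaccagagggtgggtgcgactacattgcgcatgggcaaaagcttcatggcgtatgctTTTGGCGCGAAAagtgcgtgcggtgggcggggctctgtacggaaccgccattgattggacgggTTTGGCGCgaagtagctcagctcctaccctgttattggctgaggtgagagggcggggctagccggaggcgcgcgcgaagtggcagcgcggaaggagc

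Mcm6 held 3 matches in its window, Mcm5 held 2, and Cdc6 and Cdt1 held 1 each. Of the 15 members with a match, 8 rose and 3 fell with HTL, and 1 rose and 8 fell in betaine plus HTL cells against HTL cells, by the per-gene test described below. With the size factors described there these counts were 3 and 5, and 1 and 5. The 1 rise, Cdt1, was lost without HTL replicate 2 or 3 or any 1 betaine plus HTL library. Of the 23 with a window and no match, 7 rose and 9 fell with HTL, and 1 rose and 14 fell with betaine before HTL. With size factors these were 3 and 12, and 1 and 11. Of all tested genes, 39.8% rose and 20.4% fell with HTL, and 14.5% rose and 20.6% fell with betaine before HTL. With size factors 2953 and 3398 of 11012 tested genes rose and fell with HTL, and 2051 and 1658 with betaine before HTL. No test was made of the difference between these sets of genes.

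Levels are in FPKM, a unit that divides fragments by gene length and by the library's total, so levels of different genes can be compared per length. The totals inferred from the steps of low values ran from 33305478 to 39464508 fragments per library, and a member had between 512 (Ccne1) and 26925 (Rrm1) reads in a library. The median coefficient of variation of a member between the 3 libraries of a group was 2.31% in control, 2.14% in HTL and 2.25% in betaine plus HTL cells. Whether replicate libraries started from different cultures is not stated in the labels, and the p-values therefore cover the spread among these libraries alone, which may be technical. The neuronal label had thin support in the markers, with Tubb3 at a mean of 9.52 FPKM but Rbfox3 at 0.000231 and Mapt at 0.00584 FPKM over the 9 libraries, and 2 of 7 neuronal markers in the table at 0.5 FPKM or more. The summed neuronal markers ranged from 9.42 to 10.7 FPKM in control, 10.5 to 12.02 in HTL and 10.3 to 10.9 in betaine plus HTL libraries. The summed fibroblast and mesenchymal markers, mostly Vim, ranged from 1231 to 1264 FPKM in control, from 897 to 919 FPKM in HTL and from 863 to 889 FPKM in betaine plus HTL libraries. Within that list Vim and Col1a1 were lower in both treated groups, while Pdgfra was higher, at a mean of 2.65, 4.97 and 5.31 FPKM, and so was Dcn, at 0.312, 0.466 and 0.524 FPKM. Gja1, of the astrocyte list, was at 112, 121 and 141 FPKM, and Tmem119, of the microglia list, at 8.39, 8.40 and 5.51 FPKM. Among the defining markers, Gfap stayed at or below 0.0282 FPKM and Aif1 at or below 0.188 FPKM in every library. The part of these shifts in the results on replication genes was not tested.

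The members were expressed in every library, from a mean of 7.68 FPKM for Pole2, a subunit of polymerase epsilon, to 362 FPKM for Pcna, with a median of 42.8 FPKM. Their levels added up to 2667.7 to 2706.8 FPKM in control libraries, 2677.1 to 2700.2 in HTL libraries and 2462.0 to 2479.7 in betaine plus HTL libraries. The sums of control and HTL libraries overlapped, and all 3 betaine plus HTL libraries lay below both. As a share of all FPKM in a library the members took 0.665 to 0.681% in control, 0.678 to 0.68% in HTL and 0.623 to 0.629% in betaine plus HTL libraries. The median member stood 0.0105 to 0.049 above its control mean on the log2(FPKM + 1) scale in HTL libraries and at -0.1079 to -0.1208 in betaine plus HTL libraries. The median of all tested genes stood 0.0581 to 0.0728 above control in HTL libraries and 0.0393 to 0.0501 above it in betaine plus HTL libraries.

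**Figure D1:**
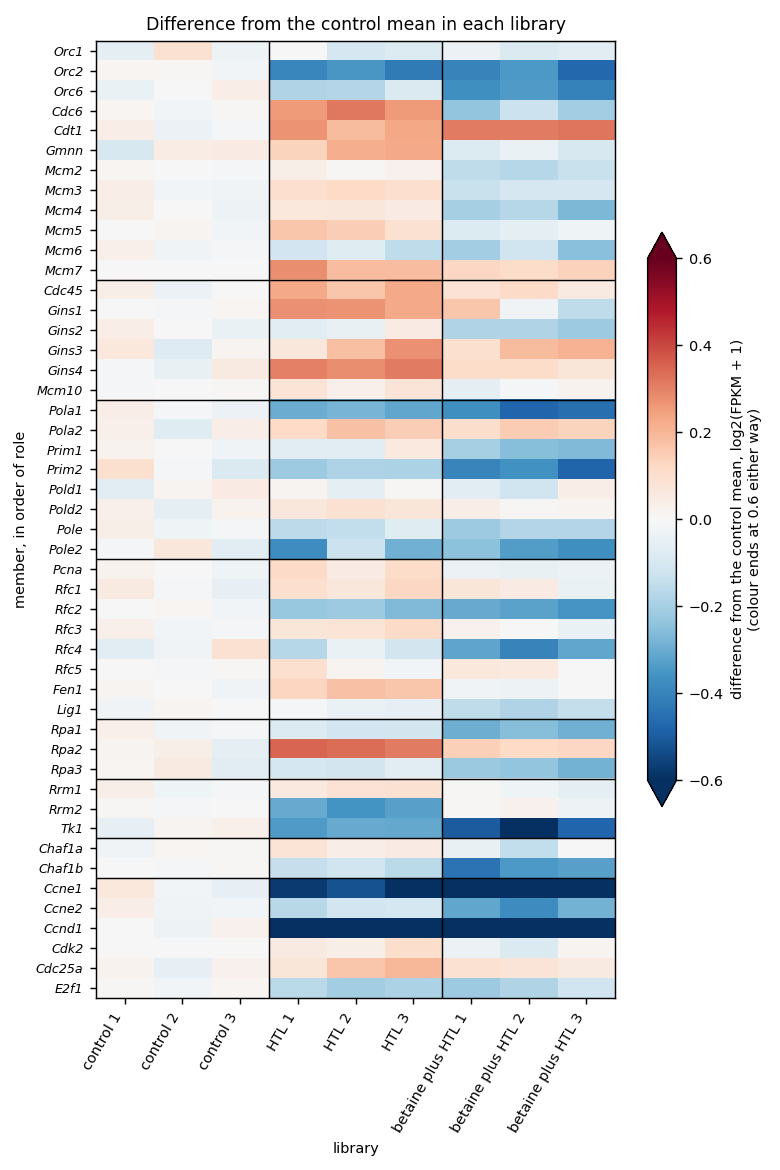
Difference of each of the 48 members (rows, in order of role) from its control mean in each of the 9 libraries (columns), on the log2(FPKM + 1) scale, with colour ending at 0.6 either way. The 3 HTL libraries hold members on both sides of control, and the median member of the betaine plus HTL libraries is at -0.1079 to -0.1208.

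Fold changes are given on the log2(FPKM + 1) scale with their standard error after ±, and p-values come from limma and are adjusted over all tested genes. Below, "with HTL" stands for HTL against control, "with betaine before HTL" for betaine plus HTL against HTL, and "against control" for betaine plus HTL against control.

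The first comparison asked what HTL did to these genes. With HTL the set split. Of the 48 members, 18 rose and 17 fell at a limma adjusted p under 0.05, which is 35 called, against 60.3% of all 11012 tested genes, 39.8% that rose and 20.4% that fell. The rises were small, up to a log2 fold change of 0.33 for Rpa2, whereas the largest fall was that of the D-type cyclin Ccnd1, at -1.10. The median over members was 0.03, beside 0.07 over all tested genes. The median size of change, whatever its sign, was 0.138 over members and 0.1555 over all tested genes. In 40 members the 3 HTL libraries and the 3 control libraries did not overlap, 23 being higher and 17 lower, beside 67.2% of all tested genes, 44.0% higher and 23.2% lower. The count of rises rests on the scaling: with libraries rescaled by median-of-ratios size factors 9 members rose and 23 fell, and with quantile normalization 17 rose and 18 fell. The 9 that still rose with size factors were Cdc6, Cdt1, Gmnn, Mcm7, Cdc45, Gins1, Gins4, Fen1 and Rpa2, and the 6 further falls were Orc1, Mcm2, Gins2, Prim1, Rfc4 and Lig1. The background moved too: of all 11012 tested genes, 2953 rose and 3398 fell with size factors, and 3242 and 2974 with quantile normalization.

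The second comparison asked how betaine before HTL changed the levels seen with HTL alone. Here the members moved mostly one way: 30 fell and 3 rose, against 35.2% of all tested genes called, 20.6% that fell and 14.5% that rose. The 3 that rose were Rrm2, Ccnd1 and Cdt1. The log2 fold change was below 0 for 43 of 48, with a median of -0.12 and a range from -0.47 for Cdc6 to 0.33 for Rrm2, beside a median of -0.02 over all tested genes. In 34 members every betaine plus HTL library was below every HTL library and in 3 every one was above, beside 27.8% and 19.9%, or 47.7% in all, of the tested genes. With size factors 23 members fell and 3 rose, and the falls lost were those of Mcm7, Cdc45, Rfc2, Rfc3, Rrm1, Chaf1a and Cdk2. With quantile normalization 25 fell and 3 rose, and the falls lost were those of Mcm7, Pcna, Rfc3, Chaf1a and Cdk2. Of all 11012 tested genes, 1658 fell and 2051 rose with size factors, and 1861 and 1999 with quantile normalization.

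The last comparison set betaine plus HTL cells against control cells. In it 24 members fell and 7 rose, against 63.4% of all tested genes called, 25.7% that fell and 37.7% that rose. The median was -0.09, beside 0.04 over all tested genes, and values ran from -0.94 for Ccnd1 to 0.31 for Cdt1. There were 26 lower and 8 higher members whose libraries did not overlap, beside 27.1% and 40.0%, or 67.1% in all, of the tested genes. With size factors 32 fell and 1, Cdt1, rose, and the 8 further falls were Orc1, Gmnn, Mcm5, Pcna, Fen1, Rrm1, Chaf1a and Cdk2. Of all 11012 tested genes, 3590 fell and 3338 rose with size factors. Without control replicate 2 the number of members that rose was 4. The first and second comparisons share the HTL libraries, and the first and last share the control libraries, so their values are set side by side below without a test of their likeness.

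**Figure D2:**
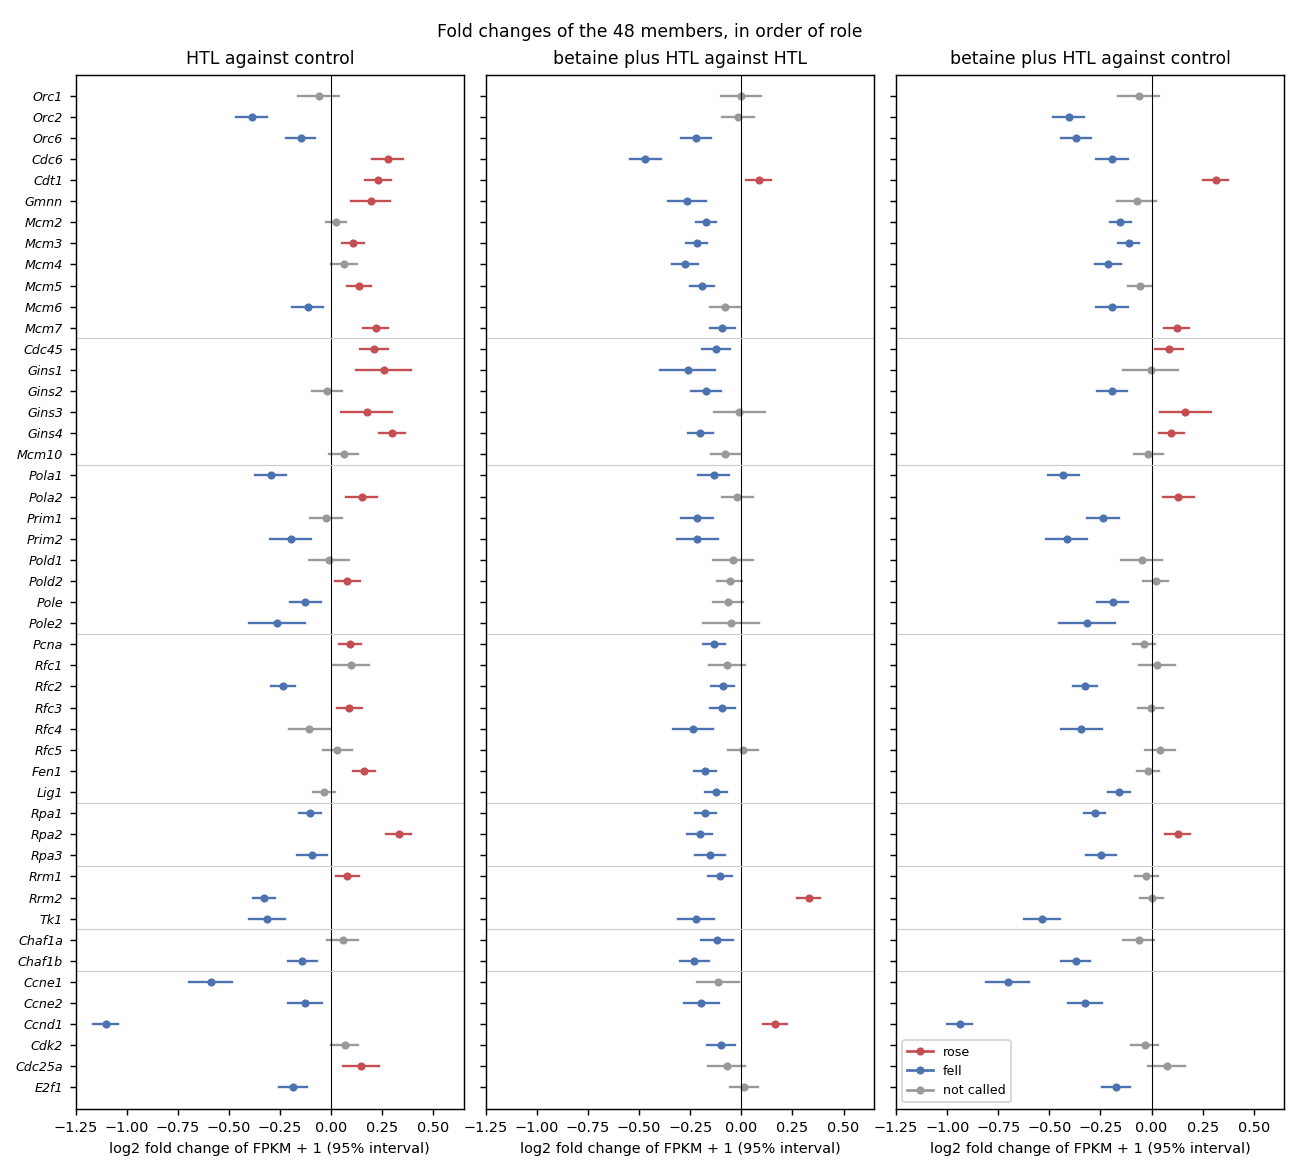
Log2 fold change of FPKM + 1 with its 95% interval for each of the 48 members in the 3 comparisons, in order of role and coloured by call. With HTL 18 members rose and 17 fell, where 39.8% of all tested genes rose and 20.4% fell. Against HTL alone 30 members fell and 3 rose in betaine plus HTL cells, where 20.6% of all fell and 14.5% rose. Against control 24 members fell and 7 rose, where 25.7% of all fell and 37.7% rose.

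Among the 6 G1/S control genes, 4 fell with HTL and 1 rose, 2 fell and 1 rose in betaine plus HTL against HTL, and 4 fell and none rose against control. Of all tested genes 20.4% fell and 39.8% rose with HTL, 20.6% and 14.5% with betaine before HTL, and 25.7% and 37.7% against control. Ccnd1 and Ccne1, cyclins that lead cells into S phase, had the largest falls of all 48 members with HTL and against control. Ccnd1, cyclin D1, the growth-factor-induced partner of Cdk4 and Cdk6 (chr7:144929931-144939831, GRCm38), was at 65.5, 63.9 and 66.7 FPKM in the control libraries, 30.1, 30.3 and 29.3 FPKM in the HTL libraries and 33.0, 34.3 and 33.5 FPKM in the betaine plus HTL libraries. The 3 groups did not overlap, and means ± SD were 65.4 ± 1.39, 29.9 ± 0.514 and 33.6 ± 0.63 FPKM (n = 3 each). That is 54.3% less with HTL (log2 fold change -1.10 ± 0.03, adjusted p = 1.83e-10), a small rise with betaine before HTL (0.16 ± 0.03, adjusted p = 0.001), and a level still below control (-0.94 ± 0.03, adjusted p = 3.61e-10). Ccnd1 shares 818 exon bases with LTO1 on the opposite strand, whose own mean was 2.76, 2.96 and 3.22 FPKM in control, HTL and betaine plus HTL cells.

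Ccne1, cyclin E1, which with Cdk2 fires the start of S phase (chr7:38097984-38107490), was at 13.8, 13.0 and 12.7 FPKM in the control libraries, 8.53, 8.84 and 7.91 FPKM in the HTL libraries and 7.89, 7.37 and 7.86 FPKM in the betaine plus HTL libraries. Every treated library was below every control library, and means ± SD were 13.2 ± 0.572, 8.43 ± 0.475 and 7.70 ± 0.294 FPKM (n = 3 each). It fell with HTL (-0.59 ± 0.05, adjusted p = 1.73e-06) and was lower than control with betaine too (-0.70 ± 0.05, adjusted p = 3.14e-07). Between betaine plus HTL and HTL cells the value was -0.11 ± 0.05, adjusted p = 0.0841, which did not pass the threshold, although all 3 betaine plus HTL libraries lay below all 3 HTL libraries. Without HTL replicate 3 that p was 0.0387.

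Ccne2, the second E-type cyclin, was at 12.1, 11.5 and 11.6 FPKM in the control libraries, 10.4, 10.8 and 10.8 FPKM in the HTL libraries and 9.25, 8.80 and 9.47 FPKM in the betaine plus HTL libraries. The groups stepped down without overlap, and means ± SD were 11.7 ± 0.316, 10.6 ± 0.25 and 9.17 ± 0.338 FPKM (n = 3 each). Log2 fold changes were -0.13 ± 0.04, adjusted p = 0.0121, with HTL, -0.20 ± 0.04, adjusted p = 0.0024, with betaine before HTL, and -0.32 ± 0.04, adjusted p = 2.14e-05, against control. The first of these was at 0.0504 without control replicate 1. Ccne2 shares 201 exon bases with Ints8 on the opposite strand, which was at 16.8, 15.6 and 14.5 FPKM in the 3 groups.

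E2f1, the activating E2F factor that is itself an E2F target, was at 28.1, 27.6 and 28.1 FPKM in the control libraries, 24.8, 24.0 and 24.4 FPKM in the HTL libraries and 23.9, 24.5 and 25.6 FPKM in the betaine plus HTL libraries. Control libraries lay above all others, and the HTL and betaine plus HTL libraries overlapped. E2f1 fell with HTL (-0.19 ± 0.03, adjusted p = 0.000344) and stayed below control with betaine (-0.17 ± 0.03, adjusted p = 0.000502), with no call between the treated groups (0.01 ± 0.03, adjusted p = 0.756, 95% interval -0.05 to 0.08).

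Cdk2, the kinase partner of E-type cyclins and cyclin A, was at 43.1, 42.8 and 43.0 FPKM in the control libraries, 44.6, 44.1 and 46.4 FPKM in the HTL libraries and 42.0, 40.4 and 43.5 FPKM in the betaine plus HTL libraries. Its HTL libraries were the highest, and its control and betaine plus HTL libraries overlapped. It was not called with HTL (0.07 ± 0.03, adjusted p = 0.0877) or against control (-0.03 ± 0.03, adjusted p = 0.349). Between betaine plus HTL and HTL cells it fell (-0.10 ± 0.03, adjusted p = 0.027), a call that did not hold without HTL replicate 1 (0.0503), HTL replicate 3 (0.108), betaine plus HTL replicate 1 (0.0538) or betaine plus HTL replicate 2 (0.0994). Cdc25a, the phosphatase that activates Cdk2, was the 1 gene of this role that rose with HTL, from 11.0 to 12.2 FPKM (0.15 ± 0.04, adjusted p = 0.00878), and that call was lost with size factors (0.19) and with quantile normalization (0.146).

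Of the 12 licensing genes, 6 rose and 3 fell with HTL, 1 rose and 8 fell with betaine before HTL, and 2 rose and 7 fell against control. With size factors 4 rose and 5 fell with HTL and 1 rose and 10 fell against control. As scaled here, 39.8%, 14.5% and 37.7% of all tested genes rose in the 3 comparisons, and 20.4%, 20.6% and 25.7% fell. The loading factors Cdc6 and Cdt1 differed from each other. Cdc6, the ATPase that completes the loading platform at origins (chr11:98907709-98923942), was at 18.5, 18.2 and 18.5 FPKM in the control libraries, 22.1, 23.2 and 22.1 FPKM in the HTL libraries and 15.4, 16.7 and 15.8 FPKM in the betaine plus HTL libraries. Its 3 groups did not overlap, with HTL cells highest and betaine plus HTL cells lowest, and means ± SD were 18.4 ± 0.206, 22.5 ± 0.597 and 15.97 ± 0.666 FPKM (n = 3 each). It rose with HTL (0.28 ± 0.04, adjusted p = 4.97e-05), fell more than any other member with betaine before HTL (-0.47 ± 0.04, adjusted p = 3.32e-06), and was below control there (-0.19 ± 0.04, adjusted p = 0.000556).

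Cdt1, which brings the Mcm2-7 ring to the origin (chr8:122568015-122573130), was at 66.0, 62.6 and 63.9 FPKM in the control libraries, 77.5, 73.3 and 75.5 FPKM in the HTL libraries and 79.8, 79.8 and 80.4 FPKM in the betaine plus HTL libraries. The groups stepped up without overlap, and means ± SD were 64.2 ± 1.71, 75.4 ± 2.08 and 80.0 ± 0.359 FPKM (n = 3 each). Cdt1 rose with HTL (0.23 ± 0.03, adjusted p = 3.66e-05) and was highest with betaine before HTL (0.31 ± 0.03, adjusted p = 2.62e-06, against control). The step from HTL to betaine plus HTL was small (0.08 ± 0.03, adjusted p = 0.0369). Its adjusted p was 0.142 and 0.0831 without HTL replicate 2 or 3, and 0.0647, 0.0703 and 0.0766 without betaine plus HTL replicate 1, 2 or 3.

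Gmnn, geminin, the inhibitor that binds Cdt1 after S phase begins, was at 21.1, 23.4 and 23.5 FPKM in the control libraries, 24.9, 26.5 and 26.7 FPKM in the HTL libraries and 21.3, 22.0 and 21.2 FPKM in the betaine plus HTL libraries. HTL libraries were above all others, and the control and betaine plus HTL libraries overlapped. Gmnn rose with HTL (0.19 ± 0.04, adjusted p = 0.00244) and fell with betaine before HTL (-0.27 ± 0.04, adjusted p = 0.000814), with no call against control (-0.07 ± 0.04, adjusted p = 0.161, and 0.0183 without control replicate 1).

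Orc2, a subunit of the origin recognition complex, was at 34.2, 34.1 and 33.6 FPKM in the control libraries, 25.7, 26.4 and 25.0 FPKM in the HTL libraries and 25.5, 26.5 and 24.2 FPKM in the betaine plus HTL libraries. Control libraries stood apart, and means ± SD were 33.9 ± 0.328, 25.7 ± 0.678 and 25.4 ± 1.16 FPKM (n = 3 each). It fell with HTL (-0.39 ± 0.04, adjusted p = 3.72e-06) and was below control with betaine too (-0.41 ± 0.04, adjusted p = 2.05e-06). The difference between the treated groups was -0.02 (adjusted p = 0.737, 95% interval -0.09 to 0.06). Orc2 shares 686 exon bases with Nif3l1 on the opposite strand, which was at 24.2, 24.2 and 23.7 FPKM in the 3 groups. Orc6, another subunit, fell at each step, from 61.0 to 54.9 and 46.9 FPKM (-0.15 ± 0.03, adjusted p = 0.00236, and -0.22 ± 0.03, adjusted p = 0.000469), and Orc1, at 10.4, 9.93 and 9.91 FPKM, was not called in any comparison as scaled here. With size factors and with quantile normalization Orc1 was lower with HTL (0.0196 and 0.0206) and against control (0.0439 and 0.029). Orc6 shares 114 exon bases with Vps35 on the opposite strand, which was at 194.6, 181.1 and 179.0 FPKM in the 3 groups.

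The 6 subunits of the Mcm2-7 ring had control means from 74.3 FPKM for Mcm6 to 141 FPKM for Mcm3. With HTL, Mcm3, Mcm5 and Mcm7 rose, Mcm6 fell, and Mcm2 and Mcm4 were not called. With betaine before HTL, Mcm2, Mcm3, Mcm4, Mcm5 and Mcm7 fell and Mcm6 was not called. Mcm5 was at 81.4, 82.2 and 80.4 FPKM in the control libraries, 91.4, 90.1 and 86.8 FPKM in the HTL libraries and 76.8, 78.0 and 79.8 FPKM in the betaine plus HTL libraries. Its HTL libraries were the highest and its betaine plus HTL libraries the lowest, without overlap. Mcm5 rose with HTL (0.13 ± 0.03, adjusted p = 0.00114) and fell with betaine before HTL (-0.19 ± 0.03, adjusted p = 0.00031), with -0.06 ± 0.03, adjusted p = 0.0866 against control, where the p was 0.0494 without betaine plus HTL replicate 3.

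Mcm4 was at 93.6, 91.1 and 89.4 FPKM in the control libraries, 95.6, 95.9 and 94.6 FPKM in the HTL libraries and 79.3, 81.0 and 75.5 FPKM in the betaine plus HTL libraries. Betaine plus HTL libraries lay well below the others, and the fall against HTL was the second largest of any member (-0.28 ± 0.03, adjusted p = 4.67e-05). Against control it was lower too (-0.21 ± 0.03, adjusted p = 7.02e-05), and with HTL alone it was not called (0.06 ± 0.03, adjusted p = 0.0888, and 0.0428 without betaine plus HTL replicate 3, whose loss changes the shared estimate of the spread). Mcm2 was at 85.4, 84.5 and 83.8 FPKM in the control libraries, 86.7, 84.9 and 86.0 FPKM in the HTL libraries and 76.0, 75.0 and 77.0 FPKM in the betaine plus HTL libraries. It did not pass with HTL (0.02 ± 0.02, adjusted p = 0.409), where its control and HTL libraries overlapped, and fell with betaine before HTL (-0.17 ± 0.02, adjusted p = 0.00018) and against control (-0.15 ± 0.02, adjusted p = 0.000122).

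Mcm3 went from 141 to 152 and 131 FPKM in control, HTL and betaine plus HTL cells. Mcm7, at 96.2, 112 and 105 FPKM, stayed above control with betaine (0.12 ± 0.03, adjusted p = 0.00239), a call lost with size factors (0.0777). Its fall against HTL (-0.09 ± 0.03, adjusted p = 0.0232) was lost without HTL replicate 1 (0.083) or betaine plus HTL replicate 2 (0.0674). On the opposite strand Mcm7 shares 64 exon bases with Cops6, at 112.5, 93.8 and 78.0 FPKM in the 3 groups. It shares 247 with Ap4m1, at 5.92, 9.53 and 9.37 FPKM. Mcm6 was at 74.3, 68.6 and 64.9 FPKM. Its fall with HTL (-0.11 ± 0.03, adjusted p = 0.0145) was lost without control replicate 1 (0.0527) or HTL replicate 3 (0.0624), its fall against control was not (-0.19 ± 0.03, adjusted p = 0.00052), and the value against HTL (-0.08 ± 0.03, adjusted p = 0.1) was at 0.0217 without betaine plus HTL replicate 2. The rises of Mcm3 and Mcm5 with HTL were lost with size factors (0.555 and 0.165).

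**Figure D3:**
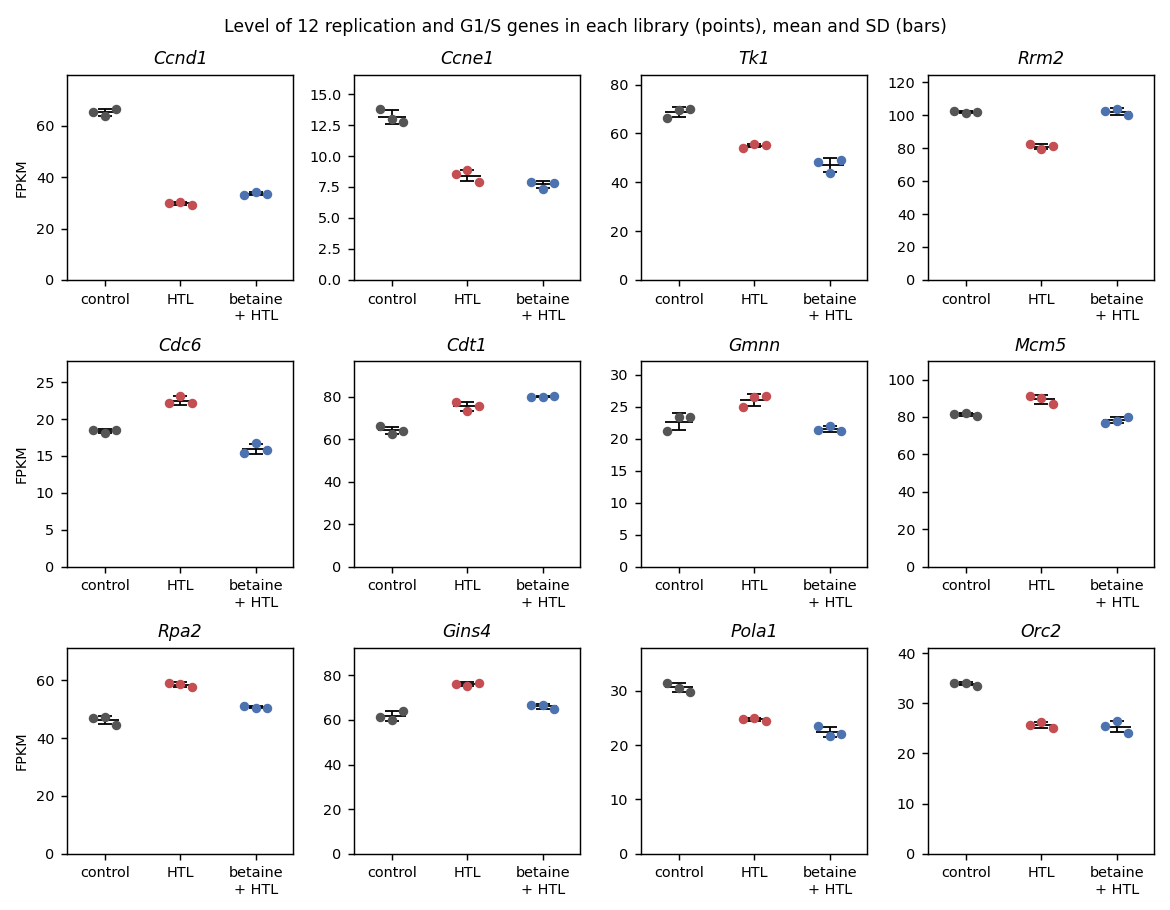
FPKM of 12 members in each of the 9 libraries (points), with the mean and SD of the 3 libraries of a group (bars), each axis starting at 0. Ccnd1 is at 63.9 to 66.7 FPKM in control libraries and 29.3 to 30.3 in HTL libraries. Rrm2 is lowest in HTL libraries, and its control and betaine plus HTL libraries overlap. Cdc6 is highest in HTL and lowest in betaine plus HTL libraries.

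Of the 6 genes that turn the loaded helicase into a fork, 4 rose and none fell with HTL (3 and 1 with size factors). With betaine before HTL none rose and 4 fell, and against control 3 rose and 1 fell. Against control none rose with size factors or without control replicate 2, and 1 rose without betaine plus HTL replicate 2. As scaled here, 39.8%, 14.5% and 37.7% of all tested genes rose in the 3 comparisons, and 20.4%, 20.6% and 25.7% fell. Cdc45, the helicase cofactor, was at 26.6, 25.3 and 26.0 FPKM in the control libraries, 30.6, 29.3 and 30.6 FPKM in the HTL libraries and 27.6, 28.2 and 26.9 FPKM in the betaine plus HTL libraries. HTL libraries were the highest, and the other groups did not overlap either. It rose with HTL (0.21 ± 0.03, adjusted p = 0.000167) and fell with betaine before HTL (-0.12 ± 0.03, adjusted p = 0.0102), a call lost with size factors (0.0557). The remaining excess over control (0.08 ± 0.03, adjusted p = 0.0344) was lost without control replicate 2 (0.126), control replicate 3 (0.0711), betaine plus HTL replicate 1 (0.0689) or betaine plus HTL replicate 2 (0.111). That excess was also lost with size factors, with quantile normalization and without the intensity trend.

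Gins4, a subunit of the GINS complex that joins Cdc45 and Mcm2-7, was at 61.3, 59.8 and 64.1 FPKM in the control libraries, 76.3, 75.2 and 76.8 FPKM in the HTL libraries and 66.7, 66.6 and 64.9 FPKM in the betaine plus HTL libraries. HTL libraries stood clear of both other groups. It rose with HTL (0.30 ± 0.03, adjusted p = 5.95e-06) and fell with betaine before HTL (-0.20 ± 0.03, adjusted p = 0.000341). It kept an excess over control (0.10 ± 0.03, adjusted p = 0.0113), lost without control replicate 2 (0.0554) or with size factors (0.265). Gins3, of the same complex, was at 11.3, 10.1 and 10.9 FPKM in the control libraries, 11.3, 12.3 and 13.2 FPKM in the HTL libraries and 11.6, 12.4 and 12.6 FPKM in the betaine plus HTL libraries. Its treated libraries overlapped with each other, and all lay above the controls. The rises were 0.17 ± 0.06, adjusted p = 0.0192, with HTL, and 0.16 ± 0.06, adjusted p = 0.0239, against control. The first was lost without control replicate 2 (0.0801), HTL replicate 2 (0.0503) or HTL replicate 3 (0.0858). The second was lost without control replicate 2 (0.0971), betaine plus HTL replicate 2 (0.0666) or betaine plus HTL replicate 3 (0.0757). Both were also lost with size factors, with quantile normalization and with no filter beyond a mean above 0.

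Gins1 rose with HTL from 18.8 to 22.7 FPKM (0.26 ± 0.06, adjusted p = 0.00368) and was at 18.8 FPKM in betaine plus HTL cells (-0.26 ± 0.06, adjusted p = 0.00705, against HTL). Its betaine plus HTL libraries ran from 16.8 to 21.2 FPKM, a coefficient of variation of 11.8%, the highest of any member in any group. Gins2 was at 59.7, 58.9 and 52.1 FPKM and fell with betaine before HTL (-0.17 ± 0.03, adjusted p = 0.00241) and against control (-0.19 ± 0.03, adjusted p = 0.000428). With HTL it was not called (-0.02 ± 0.03, adjusted p = 0.639), and 0.0244 with size factors. It shares 2758 exon bases with Gse1 on the opposite strand. Mcm10 was not called in any comparison, at 14.6, 15.3 and 14.5 FPKM.

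Of the 8 polymerase and primase genes, 2 rose and 4 fell with HTL, none rose and 3 fell with betaine before HTL, and 1 rose and 5 fell against control. With size factors no polymerase or primase gene rose, and 5 fell, with HTL and against control. As scaled here, 39.8%, 14.5% and 37.7% of all tested genes rose in the 3 comparisons, and 20.4%, 20.6% and 25.7% fell. The subunits of polymerase alpha and primase, which lay down the first RNA and DNA of each strand, moved apart. Pola1, the catalytic subunit, was at 31.5, 30.4 and 29.9 FPKM in the control libraries, 24.7, 25.0 and 24.5 FPKM in the HTL libraries and 23.5, 21.7 and 22.1 FPKM in the betaine plus HTL libraries. The groups stepped down without overlap, and means ± SD were 30.6 ± 0.842, 24.7 ± 0.273 and 22.4 ± 0.935 FPKM (n = 3 each). Log2 fold changes were -0.30 ± 0.03, adjusted p = 2.48e-05, with HTL, -0.14 ± 0.03, adjusted p = 0.0103, with betaine before HTL, and -0.43 ± 0.03, adjusted p = 1.04e-06, against control.

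Pola2, the regulatory partner of Pola1 in one complex, was at 28.0, 26.0 and 28.1 FPKM in the control libraries, 29.8, 31.0 and 30.4 FPKM in the HTL libraries and 29.5, 30.5 and 30.1 FPKM in the betaine plus HTL libraries. All treated libraries were above the controls, and the treated groups overlapped. Pola2 rose with HTL (0.15 ± 0.03, adjusted p = 0.00289) and against control (0.13 ± 0.03, adjusted p = 0.00593), and with size factors these p-values were 0.139 and 0.0808. Prim2, the large primase subunit, fell at both steps, at 23.2, 20.03 and 17.1 FPKM (-0.20 ± 0.05, adjusted p = 0.00284, and -0.22 ± 0.05, adjusted p = 0.00384). Prim1, the catalytic primase subunit, was at 64.9, 63.8 and 54.8 FPKM and fell with betaine before HTL (-0.22 ± 0.04, adjusted p = 0.000915).

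Pole and Pole2, catalytic and accessory subunits of the leading-strand polymerase epsilon, fell with HTL (-0.13 ± 0.03, adjusted p = 0.00761, and -0.26 ± 0.06, adjusted p = 0.0034) and were not called between the treated groups. Their means were 16.7, 15.2 and 14.5 FPKM for Pole and 8.88, 7.24 and 6.93 FPKM for Pole2. Pold1, the catalytic subunit of the lagging-strand polymerase delta, was not called in any comparison, at 20.6, 20.4 and 19.9 FPKM. Pold2, an accessory subunit of polymerase delta, rose with HTL from 48.4 to 51.1 FPKM (0.08 ± 0.03, adjusted p = 0.0293). That call was lost without control replicate 2 (0.133) or HTL replicate 1, 2 or 3 (0.0504, 0.0896 and 0.0613), and the sign turned with size factors (adjusted p = 0.845).

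Among the clamp, its loader and the enzymes that join the lagging strand, 3 of 8 rose and 1 fell with HTL, none rose and 6 fell with betaine before HTL, and none rose and 3 fell against control. With size factors 1 rose and 3 fell with HTL, and 2 fell without control replicate 1 or HTL replicate 2, Rfc4 being the addition. As scaled here, 39.8%, 14.5% and 37.7% of all tested genes rose in the 3 comparisons, and 20.4%, 20.6% and 25.7% fell. Pcna, the sliding clamp and the highest member, was at 363, 358 and 351 FPKM in the control libraries, 387, 370.3 and 386 FPKM in the HTL libraries and 348, 346 and 349 FPKM in the betaine plus HTL libraries. HTL libraries were the highest, and all betaine plus HTL libraries were just below the controls. It rose with HTL (0.09 ± 0.02, adjusted p = 0.00652), a call lost with size factors (0.885), and fell with betaine before HTL (-0.13 ± 0.02, adjusted p = 0.00182), a call lost with quantile normalization (0.0866). Against control it was not called (-0.04 ± 0.02, adjusted p = 0.184).

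Fen1, the flap nuclease that trims Okazaki fragments, had the largest rise of this role with HTL, from 52.8 to 59.1 FPKM (0.16 ± 0.02, adjusted p = 0.000206), and was at 52.1 FPKM with betaine (-0.18 ± 0.02, adjusted p = 0.000297). Gm10143, an antisense gene of the annotation, covers 1908 exon bases of Fen1. Lig1, the ligase that seals those fragments, was at 51.0, 49.8 and 45.6 FPKM, with a fall against HTL (-0.12 ± 0.02, adjusted p = 0.00277). Rfc2 and Rfc4, subunits of the clamp loader, were at 40.4, 34.2 and 32.0 FPKM and at 47.2, 43.8 and 37.0 FPKM. Rfc2 fell with HTL (-0.24 ± 0.03, adjusted p = 1.94e-05). Its further fall with betaine (-0.09 ± 0.03, adjusted p = 0.0196) was lost without HTL replicate 1 (0.0584), HTL replicate 2 (0.0718) or betaine plus HTL replicate 3 (0.0548). Rfc4 fell with betaine before HTL (-0.24 ± 0.05, adjusted p = 0.00219). With HTL it was not called (-0.11 ± 0.05, adjusted p = 0.063), and was at 0.0291 without control replicate 1, 0.0323 without HTL replicate 2 and 0.00255 with size factors. Rfc5 was not called in any comparison, and neither was Rfc1, although its value with HTL (0.10 ± 0.04, adjusted p = 0.0518) was at 0.0293 without control replicate 1 and at 0.0483 and 0.0301 without betaine plus HTL replicate 1 or 3. Rfc3 rose with HTL (0.09 ± 0.03, adjusted p = 0.015), lost without control replicate 2 (0.0526) or HTL replicate 3 (0.0612), and fell with betaine (-0.09 ± 0.03, adjusted p = 0.0219), lost without HTL replicate 2 (0.0512), HTL replicate 3 (0.0827) or betaine plus HTL replicate 3 (0.0646).

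The 3 subunits of RPA, the complex that coats single-stranded DNA, went opposite ways with HTL. Rpa2, the subunit that checkpoint kinases phosphorylate, was at 46.9, 47.5 and 44.6 FPKM in the control libraries, 59.3, 58.8 and 57.7 FPKM in the HTL libraries and 51.3, 50.4 and 50.6 FPKM in the betaine plus HTL libraries. HTL libraries were the highest and control libraries the lowest, and means ± SD were 46.3 ± 1.49, 58.6 ± 0.819 and 50.7 ± 0.464 FPKM (n = 3 each). It had the largest rise of any member with HTL (0.33 ± 0.03, adjusted p = 2.28e-06) and fell with betaine before HTL (-0.20 ± 0.03, adjusted p = 0.000277). It stayed above control (0.13 ± 0.03, adjusted p = 0.00184), a call lost with size factors (0.0544). Rpa1, the large DNA-binding subunit, was at 135, 125 and 111 FPKM and fell at both steps (-0.10 ± 0.02, adjusted p = 0.00269, and -0.18 ± 0.02, adjusted p = 0.000234). Its first fall was at 0.0539 with quantile normalization. Rpa3, the small subunit, was at 33.9, 31.7 and 28.4 FPKM. It fell with betaine before HTL (-0.15 ± 0.03, adjusted p = 0.00475) and with HTL (-0.09 ± 0.03, adjusted p = 0.0295). The second of these was lost without control replicate 1 or 2 (0.0761 and 0.125) or HTL replicate 1 or 2 (0.076 and 0.0861).

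The nucleotide supply genes held the member whose betaine plus HTL level met the control level most closely. Rrm2, the small subunit of ribonucleotide reductase, whose level rises in S phase (chr12:24708254-24714146), was at 103, 101 and 102 FPKM in the control libraries, 82.6, 79.2 and 81.1 FPKM in the HTL libraries and 102, 104 and 99.8 FPKM in the betaine plus HTL libraries. HTL libraries were the lowest, and the control and betaine plus HTL libraries overlapped. It fell by 20.6% with HTL (-0.33 ± 0.03, adjusted p = 1.06e-06) and rose with betaine before HTL (0.33 ± 0.03, adjusted p = 3.68e-06), the largest rise of any member there. Against control the log2 fold change was 0.00024 (adjusted p = 0.994, 95% interval -0.05 to 0.06).

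Rrm1, the large subunit of the same enzyme, did the reverse on a smaller scale. It was at 168, 161 and 163 FPKM in the control libraries, 171, 174 and 175 FPKM in the HTL libraries and 165, 161 and 157 FPKM in the betaine plus HTL libraries. HTL libraries were above the others, and control and betaine plus HTL libraries overlapped. Its fall with betaine before HTL was -0.10 ± 0.03, adjusted p = 0.00999, and 0.0796 with size factors. Its rise with HTL (0.08 ± 0.03, adjusted p = 0.0218) was lost without control replicate 2 (0.0869), control replicate 3 (0.0658), HTL replicate 2 (0.0627) or HTL replicate 3 (0.0724), and its sign turned with size factors (0.824).

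Tk1, thymidine kinase, which salvages thymidine in S phase, was at 66.4, 69.6 and 70.1 FPKM in the control libraries, 54.1, 55.5 and 55.3 FPKM in the HTL libraries and 48.3, 43.9 and 49.2 FPKM in the betaine plus HTL libraries. The groups stepped down without overlap, and means ± SD were 68.7 ± 2.00, 55.0 ± 0.763 and 47.1 ± 2.85 FPKM (n = 3 each). It fell with HTL (-0.32 ± 0.04, adjusted p = 4.9e-05) and again with betaine before HTL (-0.22 ± 0.04, adjusted p = 0.00161), which left it 31.4% below control (-0.54 ± 0.04, adjusted p = 6.53e-07). Tk1 shares 83 exon bases with Afmid on the opposite strand, at 1.05 FPKM or less on average in each group.

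Chromatin assembly factor 1 places new histones behind the fork. Chaf1a, its large subunit, was at 60.8, 62.3 and 62.1 FPKM in the control libraries, 65.3, 63.4 and 63.8 FPKM in the HTL libraries and 59.7, 55.7 and 61.8 FPKM in the betaine plus HTL libraries. HTL libraries were the highest, and control and betaine plus HTL libraries overlapped. It was not called with HTL (0.06 ± 0.03, adjusted p = 0.187). It fell with betaine before HTL (-0.12 ± 0.03, adjusted p = 0.0216), lost without HTL replicate 1 (0.0734) or betaine plus HTL replicate 2 (0.0658), and was not called against control (-0.06 ± 0.03, adjusted p = 0.135, and 0.0262 without betaine plus HTL replicate 3). Chaf1a shares 1277 exon bases with Ubxn6 on the opposite strand, which was at 12.5, 15.4 and 14.4 FPKM. Chaf1b, the middle subunit, fell at both steps, at 41.9, 37.9 and 32.2 FPKM (-0.14 ± 0.03, adjusted p = 0.00281, and -0.23 ± 0.03, adjusted p = 0.000311). In all, 16 members share exon bases with a gene on the opposite strand. Whether the counting used strand is not given in the sources used here, so reads of such pairs cannot be told apart where they overlap. On the same strand, Pole2 shares 177 exon bases with Gm49384, and Rpa1 shares 44 with the miRNA gene Gm47300. Reads of these 2 pairs cannot be told apart by strand where they overlap.

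Other genes of the pathway were counted on further lists. Of 38 other replication genes, 13 rose and 7 fell with HTL, 4 rose and 14 fell with betaine before HTL, and 14 rose and 14 fell against control. With size factors the first of these counts became 9 and 11 and the last 10 and 15. The counts with HTL were near the shares of all tested genes, 39.8% that rose and 20.4% that fell. With betaine before HTL those shares were 14.5% and 20.6%, and against control 37.7% and 25.7%. Of the 4 rises with betaine before HTL, 2 were counted without HTL replicate 3 or without betaine plus HTL replicate 2 or 3. Asf1b, a histone chaperone, stepped down from 62.4 to 51.0 and 45.1 FPKM (-0.29 ± 0.03, adjusted p = 5.78e-06, and -0.17 ± 0.03, adjusted p = 0.000689). Slbp, which binds the stem-loop of histone mRNA, rose from 50.6 to 57.9 FPKM with HTL (0.19 ± 0.03, adjusted p = 9.7e-05) and was at 48.9 FPKM with betaine (-0.24 ± 0.03, adjusted p = 6.32e-05). Atad5, which unloads Pcna from DNA, was at 8.93, 11.3 and 9.27 FPKM, a rise (0.31 ± 0.04, adjusted p = 3.84e-05) and then a fall (-0.26 ± 0.04, adjusted p = 0.000393). Wdhd1, which ties polymerase alpha to the fork, fell with betaine before HTL, from 17.1 to 14.4 FPKM (-0.23 ± 0.03, adjusted p = 0.000247). Hells, a chromatin remodeller, was at 24.4, 20.2 and 18.7 FPKM and fell with HTL (-0.26 ± 0.03, adjusted p = 3.47e-05), as did Supt16, of the histone chaperone FACT, at 50.2, 42.7 and 39.6 FPKM (-0.23 ± 0.03, adjusted p = 6.21e-05). Rnaseh2c, a subunit of the enzyme that removes RNA from DNA, rose with HTL, from 70.1 to 91.6 FPKM (0.38 ± 0.04, adjusted p = 2.15e-05).

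Of 16 other nucleotide supply genes, 1 rose and 7 fell with HTL, none rose and 10 fell with betaine before HTL, and none rose and 13 fell against control. With size factors the first count was 1 and 14 and the second 1 and 6, and with quantile normalization the second was 1 and 7. As scaled here, 39.8%, 14.5% and 37.7% of all tested genes rose in the 3 comparisons, and 20.4%, 20.6% and 25.7% fell. Tyms, thymidylate synthase, was at 18.9, 17.9 and 13.7 FPKM. With HTL alone it did not pass (-0.07 ± 0.03, adjusted p = 0.101), and without control replicate 2 that p was 0.0299. It fell with betaine before HTL (-0.36 ± 0.03, adjusted p = 1.96e-05). Impdh2, the rate-limiting enzyme of guanine nucleotide synthesis, fell with HTL from 132 to 95.3 FPKM (-0.46 ± 0.03, adjusted p = 3.98e-07) and was at 94.2 FPKM with betaine (-0.02 ± 0.03, adjusted p = 0.685). Rrm2b, the p53-induced counterpart of Rrm2, fell with HTL from 4.53 to 3.42 FPKM (-0.32 ± 0.05, adjusted p = 0.000151). Unlike Rrm2 it was not called between the treated groups (0.03 ± 0.05, adjusted p = 0.692). Dtymk, thymidylate kinase, was the 1 gene of this list that rose with HTL, at 59.7, 72.3 and 62.1 FPKM (0.27 ± 0.04, adjusted p = 0.000144). Dut, the dUTPase, stepped down at 43.1, 39.5 and 35.4 FPKM (-0.12 ± 0.03, adjusted p = 0.00198, and -0.15 ± 0.03, adjusted p = 0.00112), and Cad, which starts pyrimidine synthesis, fell with HTL at 42.1, 32.2 and 34.1 FPKM (-0.38 ± 0.03, adjusted p = 2.72e-06).

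Among 16 other cyclins and kinases of G1 and S, 5 rose and 7 fell with HTL, 3 rose and 6 fell with betaine before HTL, and 6 rose and 9 fell against control. With size factors 3 rose and 8 fell with HTL. As scaled here, 39.8%, 14.5% and 37.7% of all tested genes rose in the 3 comparisons, and 20.4%, 20.6% and 25.7% fell. The other D-type cyclins fell beside Ccnd1. Ccnd2 was at 44.3, 28.8 and 31.7 FPKM, a fall with HTL (-0.61 ± 0.03, adjusted p = 1.55e-08) and a small rise with betaine (0.13 ± 0.03, adjusted p = 0.00233). Ccnd3 was at 49.5, 42.2 and 35.3 FPKM and fell at both steps (-0.23 ± 0.03, adjusted p = 3.17e-05, and -0.25 ± 0.03, adjusted p = 5.18e-05). Cdk6, a kinase partner of the D cyclins, fell with HTL from 11.4 to 8.85 FPKM (-0.33 ± 0.03, adjusted p = 7.11e-06). Cdk4, the other partner, was at 401, 384 and 333 FPKM and fell with betaine before HTL (-0.21 ± 0.02, adjusted p = 3.66e-05). Myc, a transcription factor that promotes entry into S phase, was at 63.7, 65.6 and 90.0 FPKM and rose with betaine before HTL (0.45 ± 0.04, adjusted p = 5.7e-06). Cul4a, a scaffold of the ligase that degrades Cdt1, fell with HTL, at 49.6, 39.2 and 41.5 FPKM (-0.33 ± 0.03, adjusted p = 2.65e-06). Ccna2, cyclin A2, fell with HTL from 90.0 to 83.0 FPKM (-0.12 ± 0.02, adjusted p = 0.00181) and was at 79.7 FPKM with betaine (-0.06 ± 0.02, adjusted p = 0.0896).

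In the E2F and RB family, 7 of 17 rose and 3 fell with HTL, 3 rose and 1 fell with betaine before HTL, and 8 rose and 4 fell against control. With size factors 5 rose and 4 fell both with HTL and against control, and 5 rose against control without control replicate 2 or 3 or betaine plus HTL replicate 3. Without betaine plus HTL replicate 2, 2 fell with betaine before HTL. The counts with HTL were near the shares of all tested genes, 39.8% that rose and 20.4% that fell. With betaine before HTL those shares were 14.5% and 20.6%, and against control 37.7% and 25.7%. Rb1, the retinoblastoma protein that restrains E2F factors, rose with HTL from 3.19 to 4.38 FPKM (0.36 ± 0.05, adjusted p = 6.07e-05) and was at 4.64 FPKM with betaine (0.43 ± 0.05, adjusted p = 1.27e-05, against control). E2f4, a mainly repressive E2F, was at 51.1, 40.0 and 44.6 FPKM, a fall (-0.34 ± 0.03, adjusted p = 4.67e-06) and a partial rise (0.15 ± 0.03, adjusted p = 0.00392). Mybl2, a cell-cycle transcription factor and E2F target, was at 37.5, 30.8 and 34.7 FPKM, also a fall (-0.28 ± 0.04, adjusted p = 8.4e-05) and a rise (0.17 ± 0.04, adjusted p = 0.00604). Tfdp2, a dimer partner of E2F factors, rose with HTL at 4.31, 5.57 and 5.80 FPKM (0.31 ± 0.04, adjusted p = 7.63e-05), while Tfdp1, the other partner, was below control in betaine plus HTL cells, at 86.9, 82.7 and 77.3 FPKM (-0.17 ± 0.02, adjusted p = 6.05e-05).

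Of 7 cyclin-dependent kinase inhibitors, 3 rose and 1 fell with HTL, 1 rose and 3 fell with betaine before HTL, and 2 rose and 2 fell against control. Without HTL replicate 1, 5 rose and 1 fell with HTL and 1 rose and 5 fell with betaine before HTL. With all libraries, 39.8%, 14.5% and 37.7% of all tested genes rose in the 3 comparisons, and 20.4%, 20.6% and 25.7% fell. Cdkn1b, p27, which inhibits Cdk2, was at 21.8, 30.0 and 26.9 FPKM, a rise with HTL (0.45 ± 0.04, adjusted p = 1.53e-06) and a fall with betaine (-0.15 ± 0.04, adjusted p = 0.00664). Cdkn1a, p21, was at 13.5, 14.3 and 16.7 FPKM. It rose with betaine before HTL (0.21 ± 0.05, adjusted p = 0.00368), and with HTL alone its p was 0.154, and 0.0349 without HTL replicate 1. Cdkn2a, whose transcripts encode p16 and p19Arf, fell with betaine before HTL, at 251, 259 and 225 FPKM (-0.20 ± 0.04, adjusted p = 0.00129). Cdkn2b, p15, fell with HTL, at 23.1, 17.2 and 16.2 FPKM (-0.40 ± 0.06, adjusted p = 0.000201), and Cdkn2c, p18, rose with HTL and fell with betaine, at 78.3, 89.9 and 78.2 FPKM (0.20 ± 0.04, adjusted p = 0.000683, and -0.20 ± 0.04, adjusted p = 0.00153).

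Of 11 replication checkpoint genes, 5 rose and 2 fell with HTL, 1 rose and 3 fell with betaine before HTL, and 5 rose and 3 fell against control. With size factors 3 rose and 3 fell with HTL, and 3 rose and 4 fell against control. The 5 rises against control were 3 without control replicate 1 or 3 or betaine plus HTL replicate 3. With all libraries, 39.8%, 14.5% and 37.7% of all tested genes rose in the 3 comparisons, and 20.4%, 20.6% and 25.7% fell. Etaa1, an activator of the checkpoint kinase Atr, rose with HTL from 7.53 to 10.5 FPKM (0.43 ± 0.04, adjusted p = 7.18e-06). Atr itself fell with HTL from 3.81 to 2.88 FPKM (-0.31 ± 0.05, adjusted p = 0.000177). Atr was also the 1 gene of this list that rose with betaine before HTL, and it was not called against control. Tipin and Clspn, mediators that travel with the fork, fell with betaine before HTL (-0.21 ± 0.03, adjusted p = 0.000375, and -0.27 ± 0.05, adjusted p = 0.00108). So did Rad9a, of the checkpoint clamp (-0.18 ± 0.03, adjusted p = 0.00208). Wee1, the kinase that restrains Cdk1 and Cdk2, rose with HTL from 19.9 to 22.4 FPKM (0.17 ± 0.03, adjusted p = 0.000841).

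Genes of mitosis and G2/M, later in the cycle, were mostly higher with HTL. Of 23, 19 rose and none fell with HTL, 9 rose and 2 fell with betaine before HTL, and 17 rose and none fell against control. Their median log2 fold changes were 0.18, 0.04 and 0.25, beside 0.07, -0.02 and 0.04 over all tested genes and 0.03, -0.12 and -0.09 over the replication and G1/S members. With size factors 13 rose and 2 fell with HTL. Without HTL replicate 2, 1 fell with HTL. In place of the 9 rises with betaine before HTL, 5 were counted without HTL replicate 1, 2 or 3 or without betaine plus HTL replicate 2. With all libraries, 39.8%, 14.5% and 37.7% of all tested genes rose in the 3 comparisons, and 20.4%, 20.6% and 25.7% fell. Cenpf, a kinetochore protein that accumulates towards mitosis, was at 11.6, 19.3 and 21.1 FPKM (0.69 ± 0.03, adjusted p = 4.83e-08, with HTL). Mki67, the proliferation marker Ki-67, was at 50.8, 65.8 and 69.3 FPKM (0.37 ± 0.03, adjusted p = 5.13e-07, with HTL). Cdc25b, the phosphatase that starts mitosis, was at 58.3, 69.4 and 84.8 FPKM, with a further rise with betaine (0.28 ± 0.02, adjusted p = 5.75e-06), as for the spindle kinase Aurka, at 90.5, 101 and 116 FPKM (0.20 ± 0.02, adjusted p = 7.88e-05). Kif11, the motor that separates spindle poles, rose with HTL, at 46.7, 57.9 and 56.4 FPKM (0.30 ± 0.03, adjusted p = 2.19e-06). Cdc25c, another mitotic phosphatase, was at 12.9, 15.6 and 13.4 FPKM, a rise with HTL (0.26 ± 0.04, adjusted p = 0.000137) and a fall with betaine (-0.21 ± 0.04, adjusted p = 0.00149).

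**Figure D4:**
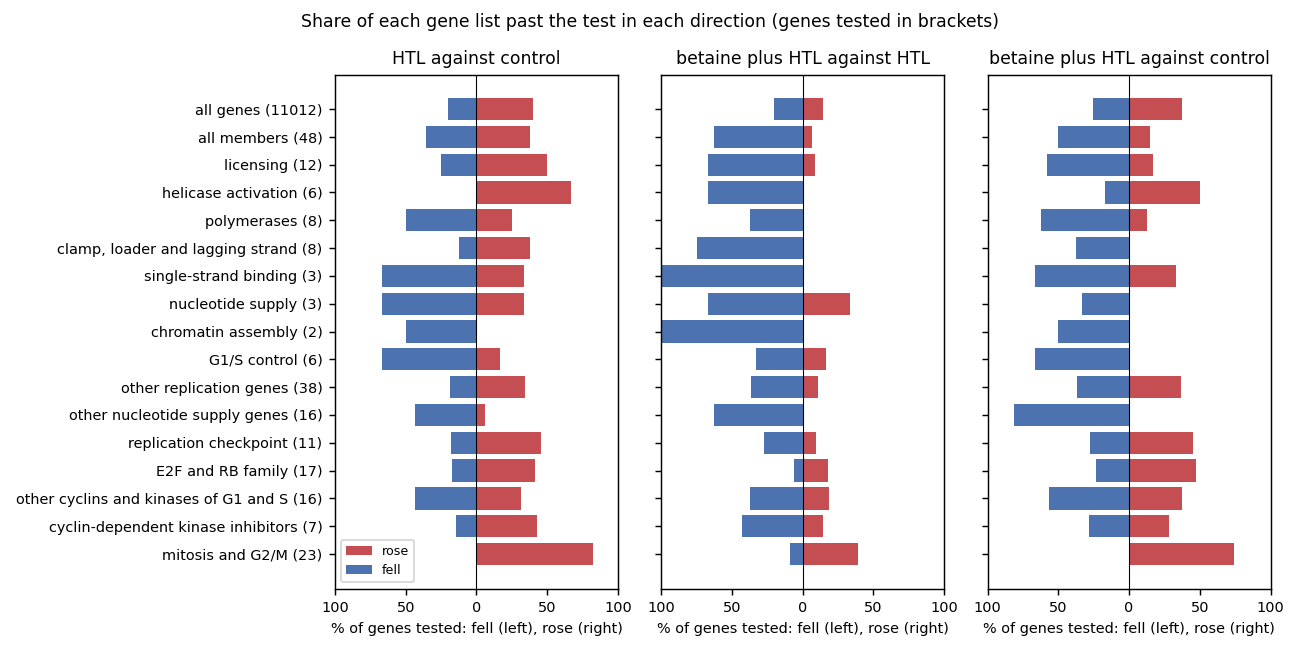
Share of the tested genes of each list that fell (left) or rose (right) at a limma adjusted p under 0.05 in the 3 comparisons, with the number of genes tested in brackets. In betaine plus HTL against HTL, 30 of the 48 members fell and 3 rose, where 20.6% of all genes fell and 14.5% rose, and the mitosis and G2/M list had 9 rises and 2 falls.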

How the data were processed

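RNA of HT-22 cells was sequenced in 9 libraries, 3 per group. The authors deposited 1 FPKM value per gene and library for 21352 genes. The tools named per the submitters' processing notes are HTSeq, HISAT2, fastp and R 3.2.0, with build mm10. Their roles, their options and any use of strand are not given in the sources used.

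A filter kept 11012 genes whose mean reached 0.5 FPKM, all 48 members among them. These were fitted in limma 3.58.1 (R 4.3.3) as log2(FPKM + 1), in 1 model of group means with all 9 libraries, an intensity trend and 6 residual degrees of freedom. P-values are two-sided, Benjamini-Hochberg adjusted over all tested genes of a comparison, with a threshold of 0.05. Every fold change is on the log2(FPKM + 1) scale, which understates the change of low genes, and is given with its standard error. The fit was tested on simulated data with changes of 0.5 or 1 either way on the log2 scale. Only 2 of the 48 members changed by 0.5 or more with HTL, so that test does not cover the smaller changes of the others. An exact permutation test of 3 libraries against 3 cannot go below p = 0.1, so none is given.

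Depth was inferred from the steps of low FPKM values. The members' values came out as whole reads, within 0.05 reads, in all 9 libraries for all 48 members, with lengths chosen to do so. No count test was run. Members and lists were chosen with earlier results of these data known, so no list was tested as a set. Full values were given to the 3 largest rises and falls among called members of each comparison and to 17 fixed members, and from each other list to the 3 genes with the smallest p in a comparison and to 8 further genes, of which 1 is not reported here. Sample groups come from the labels' titles. Alternatives were other pseudocounts, filters, scalings and fits, a replicate block, and leaving out each library in turn.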

Additional observations from a re-analysis of the deposited data

How the results depend on the processing

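Over 18 alternatives, 22 of the 35 members called in HTL against control, 24 of 33 in betaine plus HTL against HTL and 24 of 31 in betaine plus HTL against control were called under every one, and no member was called in both directions. Median-of-ratios size factors gave 9 rises in place of 18 with HTL and 1 in place of 7 against control, and leaving out control replicate 2 gave 4 in place of 7. Of all calls among tested genes, the share that rose was 66.1%, 41.4% and 59.5% in the 3 comparisons as reported, 52.2%, 51.8% and 52.4% with quantile normalization, and 46.5%, 55.3% and 48.2% with size factors.

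When 1 library was left out, rises with HTL ranged from 14 to 20 and falls from 15 to 17, betaine plus HTL against HTL gave 2 to 3 rises and 26 to 30 falls, and against control 4 to 7 rises and 24 to 26 falls. Signs turned for values near 0. With size factors the median member with HTL was at -0.0598, Mcm2 at -0.0646 (adjusted p = 0.0441), Rrm1 at -0.0085, Chaf1a at -0.0309 and Cdk2 at -0.0206, and Rrm2 in betaine plus HTL against control at -0.0562. With quantile normalization Pcna and Rrm1 against control were at 0.0564 and 0.0224. With 1 library left out, Rrm2 against control ranged from -0.0129 to 0.0157, and E2f1 in betaine plus HTL against HTL from -0.012 to 0.0363. The cause was not tested.

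Samples of different groups share replicate numbers, and the labels do not say whether these mark a pairing. Deviations of same-numbered samples correlated at -0.0729 to 0.0592, and those of different-numbered samples at -0.0935 to 0.1526. With 3 libraries a group such correlations cannot exclude a pairing, and the main fit used none. With the replicate block the counts were 18 rises and 17 falls, 3 and 30, and 7 and 24, the same as without it. With 3 libraries a group, a member could be missed where its change was near the spread between libraries.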
